A study of Mus musculus with 6 samples.

Results

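The intronic circular RNAs (ciRNAs) of mouse liver were taken as every entry of the deposited circRNA list whose circle type was ciRNA. They were 973 of 7469 entries (13%), next to 6406 exonic circRNAs, of which 338 spanned 1 exon. The samples were liver of 12-week-old male C57BL/6J mice, 3 fed a high-fat diet (HFD, 60% fat) and 3 fed a low-fat diet (LFD, 10% fat) for 7 weeks. RNA was sequenced after ribosomal RNA depletion, 1 library a mouse, and each entry was measured by its back-spliced reads, that is, reads over the site at which its last base is linked to its first. P-values rest on these 6 mice and cover the spread between mice and the counting of few reads together. In bulk liver, fewer cells of a type and less RNA per cell cannot be told apart.

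When an intron is spliced out, its first base is joined through an unusual 2′-5′ bond to a branch point adenosine near its end, which forms a lariat. Most lariats are opened and degraded, but some lose only the tail after the branch point and persist as a closed loop. A ciRNA of this kind runs from the first base of the intron to the branch point, so that it stops short of the intron's 3′ edge, whereas exonic circRNAs are made by back-splicing of exon ends. Such intronic circles have been described mainly in the nucleus.

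All 973 ciRNAs began at the first base of the intron that the list gives for them. For 222 this intron is the circle itself, so that the match there is set by the list. How the list assigns introns to the other ciRNAs is not described, so their match may be set by the list too. In GENCODE M21 (GRCm38), 873 shared their first base with an annotated intron of the same strand. These were grouped by where they end relative to the nearest annotated 3′ edge, with limits set after the distances were seen. The largest group held 511 ciRNAs (52.5%) that stopped 10 to 60 nt short of the 3′ edge, called short here. Another 138 (14.2%) were whole introns, 92 (9.46%) ended under 10 nt from the edge, and 132 (13.6%) ended over 60 nt short of it. The remaining 100 (10.3%) began at no annotated intron start and are called unmatched.

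**Figure D1:**
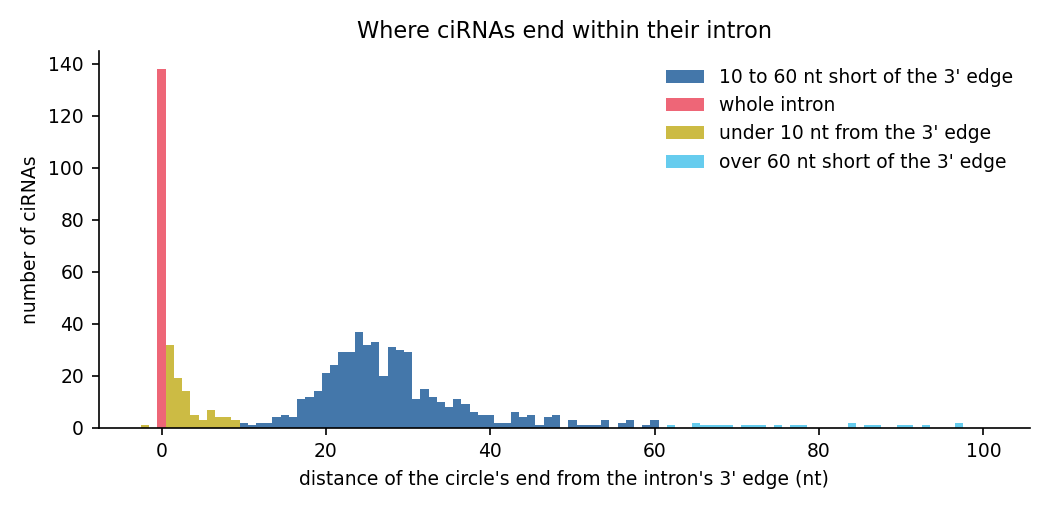
Number of ciRNAs (y axis) by the distance in nt from the end of the circle to the 3′ edge of its intron (x axis, shown up to 100 nt), coloured by group. The 138 whole introns stand at 0, and the short ciRNAs form a separate hump whose most frequent distance is 24 nt (37 ciRNAs).

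Sequences are shown for ciRNAs that recurred over libraries and lie within an exon of an annotated transcript, most often a retained intron, read from the GENCODE M21 transcripts in 5′ to 3′ direction. Capitals mark the first 2 bases and the last base of the circle, or the last 2 bases of the intron. The ciRNA with most reads lies in intron 1 of Hykk, which encodes hydroxylysine kinase (chr9:54917859-54918246, plus strand, 388 bp). It covers a whole annotated intron. The list gives another annotated intron for it, and the grouping used the nearest 3′ edge. A second entry, ciRNA438, ends 1 base earlier.
ciRNA277 (Hykk), first 30 bases: GTgagaggaaagactagtttatgtattatt
ciRNA277 (Hykk), last 30 bases: catgtttcaatgtgtgtccttttttttcaG
ciRNA438 (Hykk), last 30 bases: gcatgtttcaatgtgtgtccttttttttcA
Another whole intron was ciRNA270 of the long non-coding RNA Gas5 (chr1:161037548-161037994, plus strand), whose introns carry small nucleolar RNAs.
ciRNA270 (Gas5), first 30 bases: GTaagtctttgaaatgtgcatgtattagtt
ciRNA270 (Gas5), last 30 bases: ctgcactaattatttttaattttcaaacaG
Short ciRNAs are shown with the stretch of intron that the circle leaves out. They come from Polr2e, a subunit shared by the RNA polymerases (chr10:80036620-80036763, minus strand), from Mtfr1l, a mitochondrial fission regulator-like gene (chr4:134530509-134530679, minus strand), and from Ces3a, a liver carboxylesterase (chr8:105050322-105050466, plus strand).
ciRNA59 (Polr2e), circle: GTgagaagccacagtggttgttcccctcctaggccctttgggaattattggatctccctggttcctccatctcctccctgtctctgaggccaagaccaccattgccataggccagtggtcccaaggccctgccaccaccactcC
ciRNA59 (Polr2e), rest of the intron: ctcgcctgcctgctcccacAG
ciRNA60 (Polr2e), last 30 bases: agtggtcccaaggccctgccaccaccactC
ciRNA202 (Mtfr1l), circle: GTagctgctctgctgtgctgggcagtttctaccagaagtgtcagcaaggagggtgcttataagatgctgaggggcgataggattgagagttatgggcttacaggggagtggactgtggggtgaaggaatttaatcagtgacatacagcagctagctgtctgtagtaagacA
ciRNA202 (Mtfr1l), rest of the intron: tacttctcttcctctggcccAG
ciRNA647 (Ces3a), circle: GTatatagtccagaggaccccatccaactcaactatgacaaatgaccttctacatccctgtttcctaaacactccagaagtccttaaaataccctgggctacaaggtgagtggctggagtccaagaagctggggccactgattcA
ciRNA647 (Ces3a), rest of the intron: aagccatttctctAG
ciRNA452 (Ces3a), last 30 bases: ctggagtccaagaagctggggccactgatT
The Polr2e pair ended 21 and 22 nt short of the 3′ edge, and the Ces3a pair 15 and 17 nt short of it.

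Letters at the circle's ends were counted over the ciRNAs that could be read. Matched ciRNAs begin at an annotated intron start and whole introns end at an annotated 3′ edge, so GT and AG there are set by the grouping and are given as a description. In all, 140 of the 973 lay within 1 exon of an annotated transcript, and 44 of these overlapped an annotated untranslated region. Of the 140, 137 (97.9%) began with GT and the other 3 with GC, where GT made up 6.36% of the dinucleotides of these circles. All 15 whole introns with sequence ended with AG, whereas 2 of 38 ciRNAs (5.26%) that ended over 60 nt short of the edge did so. Of 76 short ciRNAs, 25 ended on A (32.9%), 23 on T (30.3%), 18 on C (23.7%) and 10 on G (13.2%). At 10 to 60 nt from the 3′ edge of the same introns, A was 18.8%, T 32%, C 29.0% and G 20.3% of the bases. A was thus more frequent at the circle's end than in the surrounding bases, which was not tested.

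The libraries did not contribute evenly to the ciRNAs. The total of back-spliced reads ranged from 5384 to 6590 per library, but HFD 1 and LFD 3, the 2 libraries with the higher listed sequencing quality (Q30), held more ciRNAs than the other 4. HFD 1, HFD 2 and HFD 3 had reads for 344, 149 and 129 ciRNAs, and LFD 1, LFD 2 and LFD 3 for 98, 110 and 280. The ciRNA reads were 692, 358 and 285 (HFD 1 to 3) and 270, 252 and 521 (LFD 1 to 3). Of all ciRNAs, 550 (56.5%) had reads only in HFD 1, LFD 3 or both, compared with 25.9% of the exonic circRNAs. The part of sequencing quality in this was not tested.

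The excess in HFD 1 and LFD 3 lay mainly in the short ciRNAs. They numbered 200 in HFD 1 and 172 in LFD 3, against 40, 47, 41 and 42 in HFD 2, HFD 3, LFD 1 and LFD 2. As a share of all back-spliced reads they took 5.17% and 3.83% in HFD 1 and LFD 3, and 0.926% to 1.5% in the others. Unmatched ciRNAs numbered 42, 30 and 29 (HFD 1 to 3) and 21, 24 and 31 (LFD 1 to 3), a narrower range. Those that ended over 60 nt short numbered 38 and 33 in HFD 1 and LFD 3 and 24, 20, 10 and 10 in HFD 2, HFD 3, LFD 1 and LFD 2, so HFD 1 and LFD 3 were highest there too. Whole introns numbered 47 and 31 in HFD 1 and LFD 3 and 33, 15, 11 and 19 in the same other 4. The ciRNAs that ended under 10 nt from the edge numbered 17 and 13 in HFD 1 and LFD 3 and 15 to 22 in the other 4, and HFD 1 and LFD 3 were not the highest there.

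**Figure D2:**
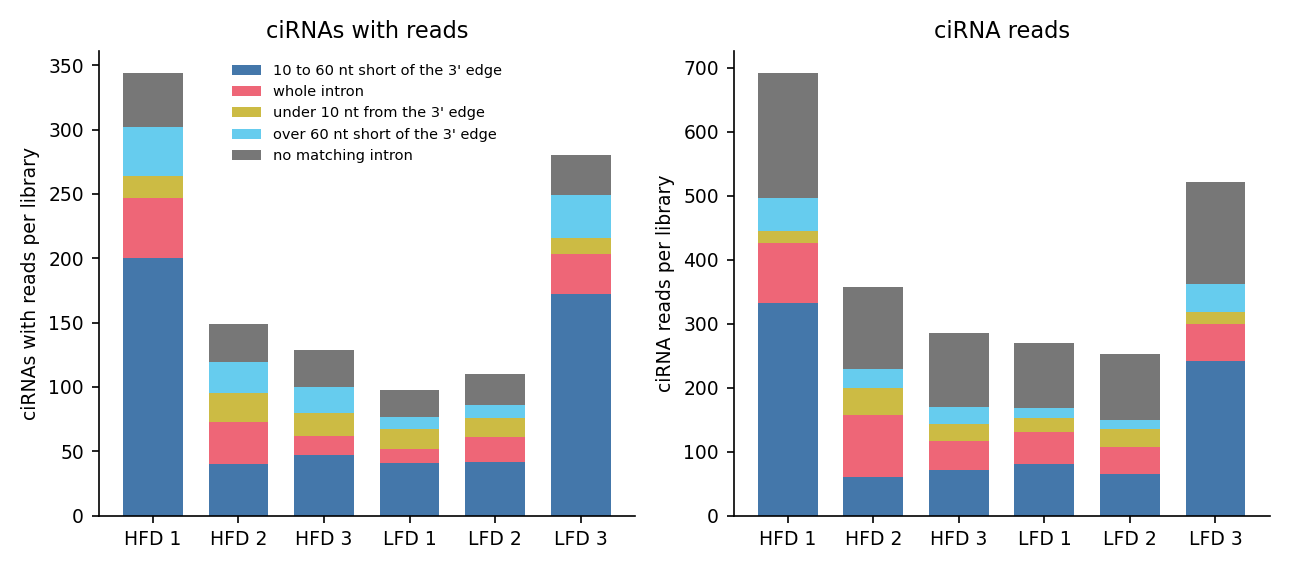
Stacked bars give the ciRNAs with reads (left y axis) and the ciRNA reads (right y axis) of each of the 6 libraries, coloured by where the circle ends. The short ciRNAs reach 200 in HFD 1 and 172 in LFD 3 and stay between 40 and 47 in the other libraries.

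Reads per ciRNA were few. The 973 ciRNAs held 2378 of 36218 back-spliced reads (6.57%), and 586 (60.2%) had 1 read in all, compared with 40.6% of the exonic circRNAs. The median was 1 read per ciRNA and 2 per exonic circRNA. At the upper end, 28 ciRNAs with 10 or more reads held 775 reads (32.6% of ciRNA reads), and the highest had 156. Within a library, the mean was 2.26 ± 0.313 reads per ciRNA detected (SD, n = 6 libraries) and 3.18 ± 0.0842 per exonic circRNA, lower in 6 of 6 libraries (p = 0.03125, two-sided exact paired permutation test, the smallest p that 6 libraries allow, adjusted p = 0.03125 over 6 tests). The 1-exon circRNAs had a mean of 3.32 reads, and ciRNAs were lower than these in 6 of 6 libraries too (exact permutation p = 0.03125).

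The reads per ciRNA differed by group. The 511 short ciRNAs held 851 reads, and 66.3% of them had 1 read. The 100 unmatched ciRNAs held 801 reads, nearly as many, and 1 of the 100 had 1 read. The 138 whole introns held 387 reads, of which the Hykk entry had 156.

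Few ciRNAs recurred. Of the 973, 893 (91.8%) had reads in 1 library, 52 in 2, 11 in 3, 8 in 4, 6 in 5 and 3 in all 6, whereas 69.9% of exonic circRNAs and 63.6% of 1-exon circRNAs were found in 1 library. Of the ciRNAs of a library, 22.7% ± 7.08 (SD, n = 6) were also found in another library, compared with 57.0% ± 1.34 of exonic circRNAs and 64.5% ± 4.88 of 1-exon circRNAs. The share was lower for ciRNAs in 6 of 6 libraries in both comparisons (p = 0.03125 each, two-sided exact paired permutation test, adjusted p = 0.03125), although libraries share circles and so are not fully independent here. HFD 1 and LFD 3 had the lowest shares (13.4% and 14.6%), and the other 4 lay between 24.2% and 29.6%, still below every library's share for exonic circRNAs. With reads summed over the ends of an intron, 61 of 811 matched introns (7.52%) were found in 2 or more libraries.

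Unmatched ciRNAs recurred more often than each of the other groups. Of the unmatched ciRNAs of a library, 66.7% ± 9.86 (SD, n = 6) were found in another library, compared with 12.9% ± 4.68 of the short ciRNAs, 20% ± 9.83 of whole introns, 10.6% ± 4.46 of those under 10 nt from the edge and 6.78% ± 7.29 of those over 60 nt short. Each difference held in 6 of 6 libraries (p = 0.03125 each, two-sided exact paired permutation test, adjusted p = 0.03125 over 4 tests). The unmatched entries also had more reads each, as given above. Of them 1% had 1 read in all, compared with 63% to 75% in the other groups. Among the unmatched ciRNAs found in 2 or more libraries, none had exactly 1 read in any library. The groups were thus not compared at a like minimum of reads, and the part of read number in recurrence was not tested.

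**Figure D3:**
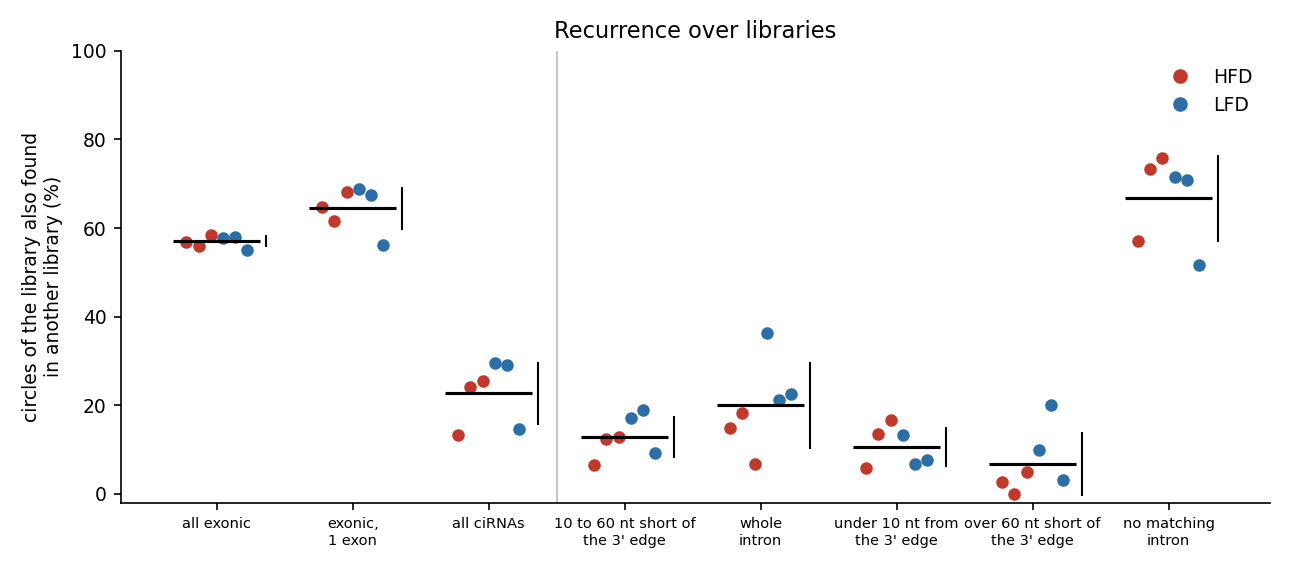
Percent of the circles of a library that were also found in another library (y axis), 1 point per library, with the mean as a horizontal line and 1 SD as a vertical line. All ciRNAs lie between 13.4% and 29.6%, below the exonic circRNAs, while unmatched ciRNAs lie between 51.6% and 75.9%.

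The edges of the unmatched ciRNAs were compared with annotated exons. Of the 100, 79 had 1 of their edges on the edge of an annotated exon, 0 had both, and 21 had neither. An edge of 49 of them lay within 1 bp of the same edge of an exonic circRNA of the list. Their median span was 6772.5 bp, whereas the short ciRNAs had a median of 410 bp, whole introns 608.5 bp and those over 60 nt short 354 bp. All 18 ciRNAs that carry a name from a circRNA database (1.85%, compared with 32.8% of exonic circRNAs) were unmatched. Among the unmatched without a database name, ciRNA343 of Ghr had its lower edge 1 bp from that of an exonic circRNA and its upper edge 37 bp from it.

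The genomic span, end minus start plus 1, had a median of 506 bp over all ciRNAs (quartiles 275 and 922). It ranged from 105 to 196236 bp, with 131 ciRNAs under 200 bp, 222 of 1000 bp or more and 47 of 10000 bp or more. The median span of the ciRNAs of a library was 565 ± 92.3 bp (SD, n = 6), shorter than the 5585 ± 444 bp of exonic circRNAs and longer than the 384 ± 65.0 bp of 1-exon circRNAs, each in 6 of 6 libraries (p = 0.03125, two-sided exact paired permutation test, adjusted p = 0.03125). The shortest were ciRNA444 of Slc38a3, a glutamine transporter (105 bp), ciRNA528 of Alb, serum albumin (109 bp), and ciRNA372 of Arvcf, a catenin family member (114 bp), with 1 read each. The end of ciRNA528 lay on the end of an annotated exon. The longest were ciRNA568 of the forkhead factor Foxp1 (196236 bp), ciRNA651 of the F-box gene Fbxl17 (101172 bp) and ciRNA344 of Ghr, the growth hormone receptor (101113 bp), all unmatched, with 2 to 4 reads. Of 865 ciRNAs placed in the isoform listed for them, 98 (11.3%) were in intron 1, 80 (9.25%) in intron 2 and 94 (10.9%) in intron 3. First introns were 6.34% of the introns of these isoforms, and the difference was not tested.

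Several ends of 1 intron were listed as separate ciRNAs. Among the matched ciRNAs, 45 introns had 2 or more, with a median distance of 10 nt between the outermost ends, and in 14 of them all ends lay within 2 nt. Intron 3 of Aox3, an aldehyde oxidase, had 5 ciRNAs that ended 2, 3, 5, 56 and 84 nt short of the 3′ edge. Its first end, ciRNA260, had 1, 2 and 1 reads in HFD mice and 1, 0 and 0 in LFD mice, and the other 4 ends were each seen in 1 library. Intron 3 of Tmem150a, a transmembrane protein gene, had 4 ends at 42, 43, 44 and 45 nt, found in HFD 1, LFD 2 and LFD 3. Intron 1 of Abhd11, a mitochondrial hydrolase gene, had 3 ends between 20 and 23 nt with 21 reads in all. The 4 ends in intron 2 of Alb were 8616 to 10371 nt from its 3′ edge and had 1 read each. That intron is 10480 nt long and belongs to a listed isoform with 2 introns, so these distances depend on the isoform.

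The ciRNAs came from 768 of the 3468 host genes of the list, and 335 of these (43.6%) also gave exonic circRNAs. Most hosts (638) had 1 ciRNA, 89 had 2, 25 had 3, 6 had 4 and 10 had 5 or more. Summed over its ciRNAs, a host was found in 2 or more libraries in 150 cases (19.5%) and in all 6 libraries in 5 cases. Of the ciRNAs, 962 lay inside the named host on its strand, 6 lay on the opposite strand of it, and for 5 the host's name had no match in GENCODE M21. The chromosomes with most ciRNAs were 2 (81), 7 (79) and 11 (79).

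The 5 hosts with most ciRNAs were Apoe, Aox3, Alb, Pck1 and Tle1. Apoe, the apolipoprotein that clears lipoprotein remnants, had 7 ciRNAs with 13 reads, all of them in HFD 1 (6) and LFD 3 (7). Of these ciRNAs, 4 with 7 reads shared 1 annotated intron (chr7:19696338-19696723). Among them, ciRNA141 lies within an exon of another annotated transcript, so that it is intronic in some isoforms only. Aox3 had 7 ciRNAs with 12 reads, spread over 5 libraries, and Alb had 7 with 7 reads. Pck1, the rate-limiting enzyme of gluconeogenesis, had 6 ciRNAs with 15 reads. Tle1, a transcriptional corepressor, had 6 with 14 reads. By reads the order differed, with Hykk (177 reads), the complement factor H-related gene Cfhr3 (83), Filip1l (65), Ccnb1ip1 (58) and Ghr (42) first. None of these was among the 5 hosts with most ciRNAs.

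Host genes were then counted in lists of liver functions. Plasma protein genes were 41 of the ciRNA hosts (5.34%) and 1.15% of the exonic circRNA hosts, with 85 ciRNAs and 176 reads, and 50 of the 85 were short. Crp (38 reads), Apoe (13) and Pzp, an alpha-2-macroglobulin family gene (10), had most reads among them. Their ciRNAs numbered 36, 8 and 3 (HFD 1 to 3) and 11, 9 and 26 (LFD 1 to 3), with the highest numbers again in HFD 1 and LFD 3.

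Lipid metabolism genes were 25 hosts (3.26%, exonic 1.48%) with 43 ciRNAs. Genes of detoxification and bile acids were 32 hosts (4.17%, exonic 1.78%) with 51 ciRNAs, amino acid and urea cycle genes 20 hosts (2.6%, exonic 1.09%) with 25. RNA processing genes were 28 hosts (3.65%, exonic 2.37%) with 39 ciRNAs, and carbohydrate and insulin genes 5 hosts (0.651%, exonic 0.692%) with 16. These shares are descriptions and were not tested.

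The labelled tissue was checked against cell type markers among the hosts. Of 10 hepatocyte markers, 8 hosted ciRNAs (Alb, Ttr, Apoa1, Apob, Serpina1c, Cps1, Pck1 and Cyp2e1), with 26 ciRNAs and 41 reads. The marker lists of Kupffer cells, endothelial cells, stellate cells, cholangiocytes and lymphocytes held 0 ciRNA hosts. These lists have 6 to 8 genes each, and the 0 covers the listed genes only. Exonic circRNAs were hosted by 7 hepatocyte, 3 Kupffer, 3 endothelial and 1 stellate marker.

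The ciRNA of the Hykk intron stood far above the others. Its reads were 20, 45 and 27 in HFD and 28, 21 and 15 in LFD. The diets overlapped, and no library was without it. Per 10000 back-spliced reads the level was 48.1 ± 18.8 in HFD and 37.9 ± 14.1 in LFD (SD, n = 3 each), a log2 fold change of 0.34 (SE 0.47, edgeR adjusted p = 0.987, exact permutation p = 0.5, where 3 mice a diet cannot go below 0.1). Without HFD 2 the log2 fold change was -0.03. The entry that ends 1 base earlier had 0, 9 and 7 reads in HFD and 1, 3 and 1 in LFD, and the diets overlapped there too.

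Other ciRNAs that recurred in 5 or 6 libraries were, but for both Hykk entries, all unmatched. ciRNA309 of Crp, the acute-phase C-reactive protein (chr1:172774950-172776770), had 7, 6 and 2 reads in HFD and 2, 8 and 12 in LFD. ciRNA343 of Ghr (chr15:3457930-3551722) had 2, 6 and 4 reads in HFD and 6, 3 and 6 in LFD. Both were found in every library, and their diets overlapped. Of 2 Cfhr3 entries with the same upper edge, ciRNA458 had 0, 7 and 10 reads in HFD and 9, 11 and 5 in LFD, and ciRNA312 had 2, 9 and 0 in HFD and 10, 6 and 5 in LFD. ciRNA305 of the predicted gene Gm34667 had 4, 0 and 9 reads in HFD and 9, 8 and 5 in LFD. These 3 overlapped between diets, each with an HFD library at 0. ciRNA332 of Bckdhb, a subunit of the branched-chain keto acid dehydrogenase, had 3, 5 and 10 reads in HFD and 5, 2 and 0 in LFD. mmu_circ_0001528 of the transcription factor gene Etv6 had 3, 3 and 0 in HFD and 2 in each LFD library. The fitted log2 fold changes of these 7 ran from -1.11 (SE 1.12, ciRNA312) to 1.13 (SE 1.28, ciRNA332), and the edgeR adjusted p was 0.987 for each (n = 3 mice a diet).

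**Figure D4:**
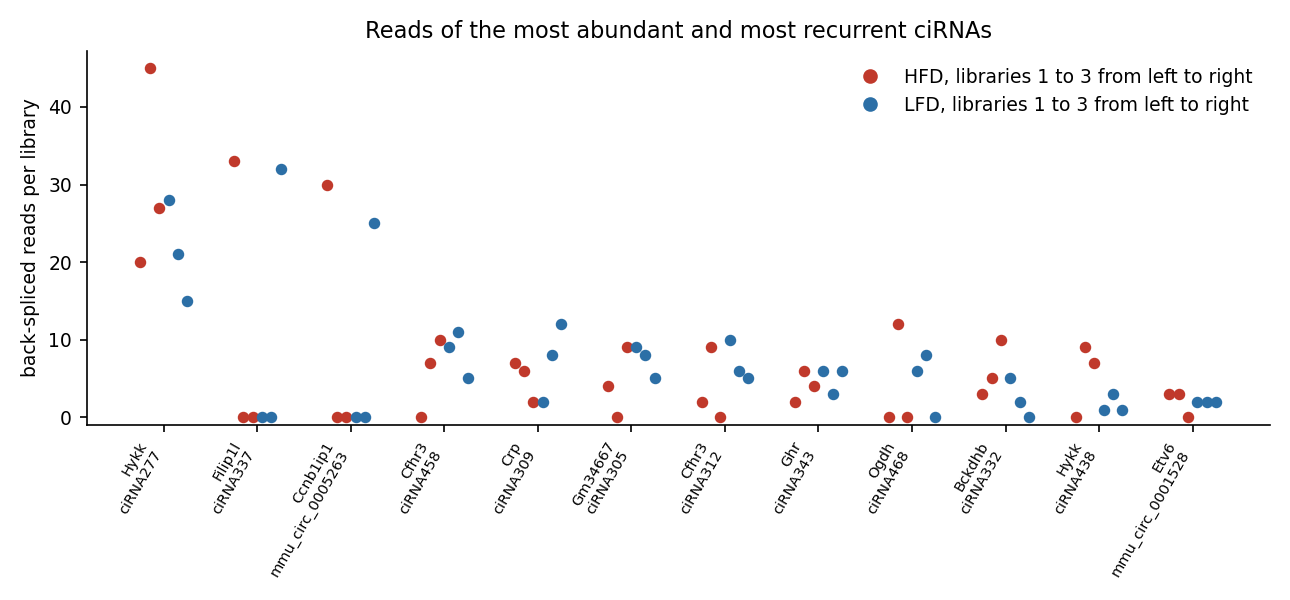
Back-spliced reads per library (y axis) of the ciRNAs found in 2 or more libraries that are among the 10 with most reads or have reads in 5 or 6 libraries (x axis), with HFD libraries in red and LFD libraries in blue. The Hykk entry ciRNA277 has 15 to 45 reads in every library, while the entries of Filip1l and Ccnb1ip1 have reads in HFD 1 and LFD 3 alone.

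A few abundant ciRNAs were seen in HFD 1 and LFD 3 only. ciRNA337, 153 bp on the opposite strand of Filip1l (chr16:57391511-57391663), had 33 reads in HFD 1, 32 in LFD 3 and 0 in the others. mmu_circ_0005263, 248 bp on the opposite strand of Ccnb1ip1 (chr14:50807447-50807694), had 30 reads in HFD 1, 25 in LFD 3 and 0 in the others. Both are thus among the 10 ciRNAs with most reads and yet had 0 reads in 4 libraries. ciRNA468 of Ogdh, a subunit of the 2-oxoglutarate dehydrogenase, had 0, 12 and 0 reads in HFD and 6, 8 and 0 in LFD, so that it was not detected in HFD 1 or LFD 3.

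Matched ciRNAs other than those of Hykk that recurred in 3 or more libraries were few and low, and the ones named here were chosen after their values were seen. ciRNA244 in intron 10 of Mapkbp1, a MAP kinase binding protein gene, had 3, 0 and 1 reads in HFD and 0, 2 and 2 in LFD. ciRNA359 in intron 14 of Abcc3, a bile acid and conjugate exporter, had 0, 3 and 0 in HFD and 8, 4 and 0 in LFD. The diets overlapped in both. ciRNA533 of Abhd11 had 0, 0 and 7 reads in HFD and 4, 4 and 0 in LFD.

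The main comparison asked whether diet went with the number or level of ciRNAs. The share of back-spliced reads in ciRNAs was 6.99% ± 3.30 in HFD and 5.95% ± 2.03 in LFD (SD, n = 3 each), with single libraries at 10.8%, 5.43% and 4.75% in HFD and 5.01%, 4.56% and 8.28% in LFD. The diets overlapped, and the difference of 1.04 percentage points did not pass (p = 0.6, two-sided exact permutation test over 20 arrangements, smallest possible p 0.1, adjusted p = 0.6 over 3 tests). Without HFD 1 the difference was -0.862. Without HFD 1 and LFD 3 the means were 5.09% and 4.79%.

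The number of ciRNAs per library was 207 ± 119 in HFD and 163 ± 102 in LFD (exact permutation p = 0.5, adjusted p = 0.6, n = 3 each), and 139 against 104 in the 2 libraries a diet of lower quality. Without HFD 1 the difference changed from 44.7 to -23.7. Of the ciRNAs of a library, 21% ± 6.68 in HFD and 24.4% ± 8.49 in LFD were shared with another library (exact permutation p = 0.5, adjusted p = 0.6). For the 5 groups by circle end, neither the number nor the share of reads passed between diets (10 exact permutation tests with n = 3 each, p from 0.1, the smallest possible, to 0.9, adjusted p from 0.714 to 0.9). The ciRNAs under 10 nt from the edge had the p of 0.1 in an exact permutation test, since their numbers, 17, 22 and 18 in HFD and 15, 15 and 13 in LFD, did not overlap.

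Single ciRNAs were tested in an edgeR quasi-likelihood fit over all 2041 circRNAs with reads in 2 or more libraries, of which 80 were ciRNAs (8.22% of the 973). Of the 80, 24 were short, 11 whole introns, 3 under 10 nt from the edge, 3 over 60 nt short and 39 unmatched, and 40 of them never had more than 3 reads in any library. A circRNA was called where p was below 0.05 and the log2 fold change was 1 or more in either direction. By this rule 3 ciRNAs were called (3.75%), against 48 of all circRNAs tested (2.35%) and 2.18% of the exonic circRNAs tested, a share near the background. All 3 were higher in HFD, where 1.22% of all tested circRNAs were called higher. With p adjusted over all tests, 0 ciRNAs and 0 circRNAs passed, the smallest adjusted p of a ciRNA was 0.702 in edgeR, 3 ciRNAs had an unadjusted p under 0.05, and DESeq2 called 0 ciRNAs by the same rule. The fitted change was higher in HFD for 36 ciRNAs and lower for 44, with a median log2 fold change of -0.06, beside -0.08 over all circRNAs tested.

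The called ciRNAs were all unmatched and each was seen in 2 HFD libraries. With 0 reads in LFD, they passed the filter of reads in 2 or more libraries through HFD alone, where they are high. Their p-values and folds are thus descriptions. mmu_circ_0001636 of Zranb1, a deubiquitinase gene, had 13, 0 and 5 reads in HFD and 0 in each LFD library. Against a floor of 3 reads per library it was at least 1.81-fold higher in HFD (edgeR p = 0.00640, adjusted p = 0.702, exact permutation p = 0.4, n = 3 each). ciRNA327 of Slc10a7, of the bile acid cotransporter family, had 4, 7 and 0 reads in HFD and 0 in LFD (at least 1.07-fold higher, edgeR p = 0.0391). mmu_circ_0001736 of Pard3, a cell polarity gene, had 4, 0 and 6 reads in HFD and 0 in LFD (at least 1.03-fold higher, edgeR p = 0.0431). Each of the 3 had an HFD library at 0, so the diets overlapped. Without HFD 1, 0 ciRNAs were called. Without HFD 3, only the Slc10a7 entry was called, and without LFD 2, only the Zranb1 entry. The Slc10a7 entry was also lost without HFD 2. Without LFD 1, ciRNA316 of Ugt1a6b was called, with 8, 8 and 0 reads in HFD and 3, 0 and 0 in LFD. The Slc10a7 and Pard3 entries were not called without LFD 1, LFD 2 or LFD 3 (edgeR p from 0.0779 to 0.105).

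**Figure D5:**
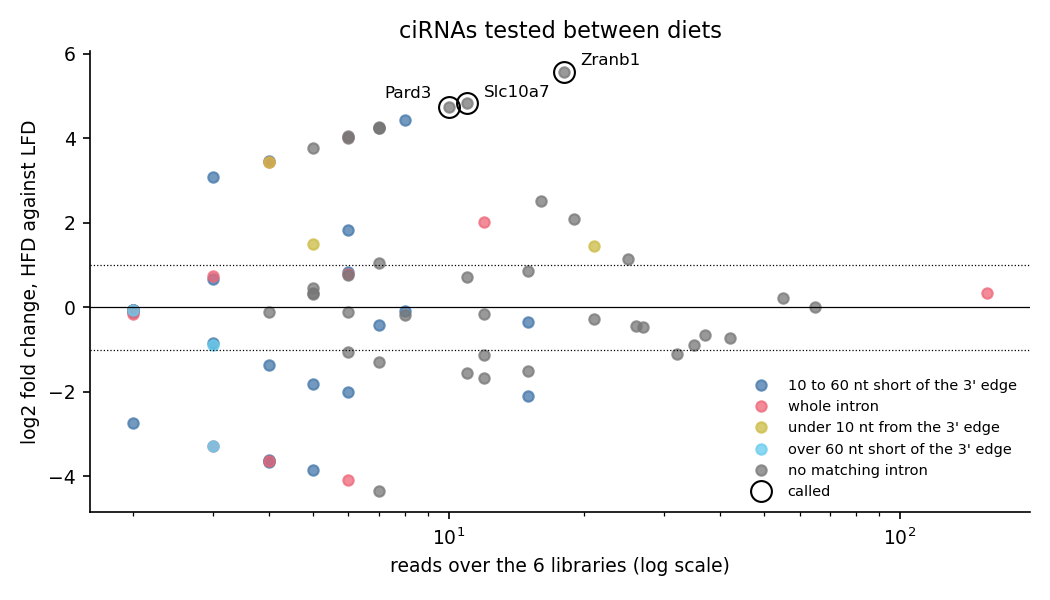
Fitted log2 fold change of HFD against LFD (y axis) by reads over the 6 libraries (x axis, log scale) for the 80 ciRNAs tested, coloured by where the circle ends, with black rings on the 3 called and dotted lines at a log2 fold change of 1 and -1. Large fitted changes lie at low reads, and the entries with over 20 reads lie between -1.11 and 1.44.

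Below the called ciRNAs, the largest fitted rises were in ciRNA300, a short ciRNA of Tat, the tyrosine aminotransferase (6, 0 and 2 reads in HFD and 0 in LFD), and in ciRNA311 of Cfhr3 (2, 0 and 5 in HFD and 0 in LFD). The largest falls were in ciRNA734 of Gm49387, with 0 reads in HFD and 0, 5 and 2 in LFD, and in ciRNA715, a whole intron of Fn1, with 0 in HFD and 0, 1 and 5 in LFD. Next came ciRNA712 in intron 1 of Pck1 (0, 1 and 4 reads in LFD), ciRNA647 of Ces3a (3, 1 and 0 in LFD), and ciRNA588 of the receptor Erbb3 and ciRNA612 of Depp1, both with 3, 0 and 1 reads in LFD, all with 0 in HFD. None of these 8 passed the call rule (edgeR adjusted p = 0.702 each). Each was seen in 2 libraries of 1 diet and passed the filter through that diet alone. Without LFD 1, ciRNA734 passed it. The neighbouring end in the same intron of Ces3a, ciRNA452, had 0, 2 and 0 reads in HFD and 0, 0 and 1 in LFD, and that of Erbb3, ciRNA71, had 3 reads in HFD 1.

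The diets did not overlap for 2 of the 80 ciRNAs (2.5%), compared with 4.85% of all circRNAs tested. ciRNA304 of Slc25a20, the mitochondrial carnitine-acylcarnitine carrier, had 3, 2 and 2 reads in HFD and 0 in LFD. It passed the filter through HFD alone. ciRNA318 of Eefsec, the selenocysteine elongation factor, had 7, 4 and 3 reads in HFD and 0, 0 and 2 in LFD. Both were unmatched, neither was called (edgeR adjusted p = 0.702, exact permutation p = 0.1, n = 3 each), and both were named after their values were seen. Both were called by limma, ciRNA304 also in the edgeR fit of circRNAs in at least 3 libraries and ciRNA318 also without LFD 3. With ciRNA reads summed per host gene, 4 of 150 hosts were called by the same rule, against 2.32% of all features in that fit. These were Zranb1, Slc10a7, Pard3 and Tat, which had 0 reads in LFD and passed the filter through HFD alone. At an adjusted p of 0.05, 0 hosts passed (smallest 0.705 in edgeR). The diets did not overlap for 5 of the 150 hosts (3.33%), compared with 4.83% of all features in that fit. Tat had 7, 1 and 2 reads over its 3 ciRNAs in HFD and 0 in LFD (edgeR adjusted p = 0.705). Aox3, Eefsec and Slc25a20 were also higher in HFD. Mfsd2a, a lysophospholipid transporter, was lower, with 0 reads in HFD and 2, 1 and 1 in LFD, and passed the filter through LFD alone. None of these 4 was called.

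By function list, 0 of the ciRNAs tested were called between diets, where 2.35% of all circRNAs tested were. This held for 4 tested in plasma protein genes, 1 in lipid metabolism, 3 in amino acid and urea cycle genes, 3 in carbohydrate and insulin genes, 5 in detoxification and bile acid genes and 1 in RNA processing, too few for a count of 0 to be a result about a list.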

How the data were processed

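Cutadapt was used by the authors for trimming, Bowtie2, TopHat2 and TopHat-Fusion for mapping, and CIRCExplorer2 together with CIRI for finding circles, per the paper's methods. The submitters' processing notes name cutadapt 1.9, TopHat2 2.0.4 and the build mm9, but the listed positions match GENCODE M21 introns, which are on GRCm38. RNase R treatment is described in the methods and not in the sample labels. The authors deposited, per circRNA and library, the count of back-spliced reads without normalization, and a signal, SRPBM, which relates these reads to the number mapped. Libraries were assigned by title. A total of 5384 to 6590 back-spliced reads per library limits precision, and errors cover counting and mice together.

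The counts were fitted with edgeR 4.0.16 (TMM, glmQLFit, R 4.3.3) over all circRNAs with reads in 2 or more of the 6 libraries, with Benjamini-Hochberg adjustment, after a test on simulated data. Group values were compared by two-sided exact permutation over libraries (SciPy 1.17.1, NumPy 2.4.6, pandas 2.3.3, Python 3.11.15). Alternatives were DESeq2 1.42.0, limma 3.58.1 on log2(SRPBM + 0.25), edgeR's exact test, other scalings and filters, a replicate block, the quality class as a term, entries within 1 bp summed, thinning and leaving out libraries. Introns were matched by their 5′ edge in GENCODE M21, taking the nearest 3′ edge at or after the circle's end, and for 1 ciRNA that ends beyond every such intron the closest one before it. A fold given as at least a value was computed against 3 reads per library, whereas the fitted log2 fold changes have no such floor and are not bounds. The named ciRNAs were the 10 with most reads, those in 5 or 6 libraries, the called, the 5 largest rises and falls, the 3 longest and shortest, those sharing an intron with these, and the 5 hosts with most ciRNAs and most reads. Some ciRNAs that this rule names are not reported here. The members, lists and rules were chosen with earlier results of these data known. Intergenic entries were used only in the fit and in the totals of entries and reads.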

Additional observations from a re-analysis of the deposited data

How the results depend on the processing

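The count of called ciRNAs, 3 in the edgeR quasi-likelihood fit, was 0 with DESeq2, 1 with edgeR's exact test, 5 with limma on log2 SRPBM, 1 with the quality class as a term and 0 without HFD 1 and LFD 3. It was 1 among circRNAs in at least 3 libraries, where the 3 ciRNAs, each in 2 libraries, were not tested and ciRNA304 was called instead. It ran from 0 to 3 when each library was left out in turn. It was 0 without the unmatched ciRNAs, an alternative chosen after seeing the data, since all 3 are unmatched. The count of all called circRNAs, 48, was 13 with DESeq2, 11 with edgeR's exact test, 79 with limma, 19 with the quality class and 17 without HFD 1 and LFD 3, and ran from 20 to 48 over the fits that leave out a library. The cause of these shifts was not tested. No TMM factors, DESeq2 size factors, no filter and summing within 1 bp left both counts within 1.5 times.

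With the replicate number as a block, 1 ciRNA and 10 circRNAs were called, and the 3 diet comparisons of shares and numbers had p = 0.75 each (exact permutation, n = 3 pairs). Libraries with the same number correlated at -0.0587, 0.113 and -0.0514 in their deviations from the diet means, so the numbers do not pair the mice.

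The sign of the fitted log2 fold change turned for ciRNA337 of Filip1l with no TMM factors (-0.002059), limma (-0.0506), no filter (-0.0376), the replicate block (-0.0656) and summing within 1 bp (-0.0277). Leaving out a library moved it from -0.63 to 0.579 for ciRNA337, from -0.0281 to 0.621 for ciRNA277 of Hykk, from -5.35 to 0.144 for ciRNA468 of Ogdh, from -0.559 to 0.37 for mmu_circ_0001528 of Etv6 and from -0.41 to 0.792 for mmu_circ_0005263 of Ccnb1ip1. None of these was called.

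Leaving out each library in turn, the diet difference ran from -0.862 to 2.20 percentage points in the ciRNA share of reads and from -23.7 to 103.3 in the number of ciRNAs. Between ciRNAs and exonic circRNAs the differences ran from -1.04 to -0.844 reads per circle, from -33.8 to -31.7 percentage points in recurrence and from -5140 to -4922 bp in median span. Without HFD 1 and LFD 3 they were -0.772, -27.8 and -5176. With 5 or 4 libraries the exact permutation test cannot go below 0.0625 or 0.125. Against 1-exon circRNAs, the span difference was 182 bp in the other direction. Restricting the shared measure to ciRNAs in 2 or more libraries was not run, since all of them are shared by construction.

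Depth limits these results. Of the 973 ciRNAs, 893 were seen in 1 library and left out of the edgeR fit by its filter, and a count of 0 in a library allows up to 3 reads. Sequencing quality class and the number of short ciRNAs moved together over the libraries.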
